A study of Arabidopsis thaliana with 6 samples.

Results

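The expansin superfamily of Arabidopsis thaliana was followed through RNA sequencing of whole 4-day-old seedlings. Its 36 loci were taken by name, as all genes annotated as EXPA (26 loci), EXPB (6), EXLA (3) or EXLB (1), out of 33602 genes in the count files. Both groups had the Columbia background. The athb1-1 seedlings carry a mutation of ATHB1, which encodes a class I HD-Zip (homeodomain-leucine zipper) transcription factor known to promote hypocotyl growth in short days, and the wild-type seedlings carry no mutation named in the labels. There were 3 libraries per genotype, which the series calls biological triplicates. Seedlings of both groups had 3 days of cold stratification and then 8 h of light and 16 h of darkness a day, and were collected 1 h before the night ended. Both an age of 4 days and a time of 72 h after stratification are given for every library. Each library holds RNA of root, hypocotyl and cotyledons together.

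Expansins are secreted proteins that let cellulose and xyloglucan slip past each other in an acidified cell wall, without cutting either polymer. Alpha-expansins (EXPA) and beta-expansins (EXPB) have this wall-loosening activity, while the expansin-like proteins EXLA and EXLB share the fold and have no established activity. In seedlings individual members are tied to particular growing cells, such as root hairs, lateral root primordia, guard cells and the endosperm of germinating seeds.

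Gene counts summed to between 12841376 and 13153615 per athb1-1 library and to between 11036314 and 11974342 per wild-type library. ATHB1 itself had a gene count of 0 in all 6 libraries. In the exon files, where its locus is merged with an overlapping short gene, it had 8.75, 8.00 and 8.97 CPM (counts scaled to library size) in athb1-1 and 378, 452 and 386 CPM in wild-type. Its log2 fold change was −5.56 (SE 0.12, edgeR adjusted p = 7.36e-11), so the libraries followed their labels. Libraries of 1 genotype differed beyond counting noise: for pairs of libraries, chi-square over its degrees of freedom was 4.48 to 4.67 in athb1-1 and 4.52 to 13.4 in wild-type, the higher values all involving wild-type replicate 2. In that library 12 seed reserve genes had a summed level of 52.2 CPM, while the sum ranged over 1.87 to 8.08 CPM elsewhere. The shortest 10% of its transcripts had a median log2 deviation of 0.11 from the mean of all libraries, and the longest 10% one of −0.21. The expansin results are therefore also given without this library.

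Of the 36 expansins, 22 passed the filter on low counts and were tested. These were 17 EXPA, 2 EXPB, 2 EXLA genes and EXLB1. No expansin was called at an adjusted p under 0.05 by edgeR's quasi-likelihood test, against 0.0537% of all 18626 genes tested, which is 10 genes. DESeq2 and limma's voom called 0 members too, against 0.0890% of 24709 genes and 0.0537% of 18626 genes. At an unadjusted p under 0.05 edgeR picked out 2 of the 22, EXPA18 and EXPA14, against 5.24% of all genes. In every one of the 22 the athb1-1 libraries overlapped the wild-type libraries, whereas 11.3% of all genes had groups that did not overlap (5.86% higher and 5.49% lower in athb1-1). The log2 fold changes, athb1-1 over wild-type, were positive for 13 expansins and negative for 9, with a median of 0.03, beside a median of 0.01 and 51.7% positive over all genes. Without wild-type replicate 2 there were 15 positive and 7 negative with a median of 0.12, and without wild-type replicate 3 there were 11 positive and 12 negative, of 23 tested, with a median of −0.0049. The median over all genes was 0.00 in the first of these fits and 0.01 in the other. With all 6 libraries the log2 fold changes of the expansins ran between −0.29 for EXPB3 and 0.58 for EXPA18.

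A missed threshold does not show equal levels, so the intervals matter. For 20 of the 22 expansins the 95% interval of the fold change lay within 2-fold in both directions, and for 12 it lay within 1.5-fold. The exceptions at 2-fold were EXPA18, whose upper bound was 1.05 on the log2 scale, and EXLB1, whose upper bound was 1.13. Summed over all 36 loci, expansin transcripts came to 782 ± 46.3 CPM in athb1-1 and 769 ± 54.4 CPM in wild-type (SD, n = 3 each), a difference smaller than either spread. In whole seedlings fewer cells of a type and less RNA per cell cannot be told apart.

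**Figure D1:**
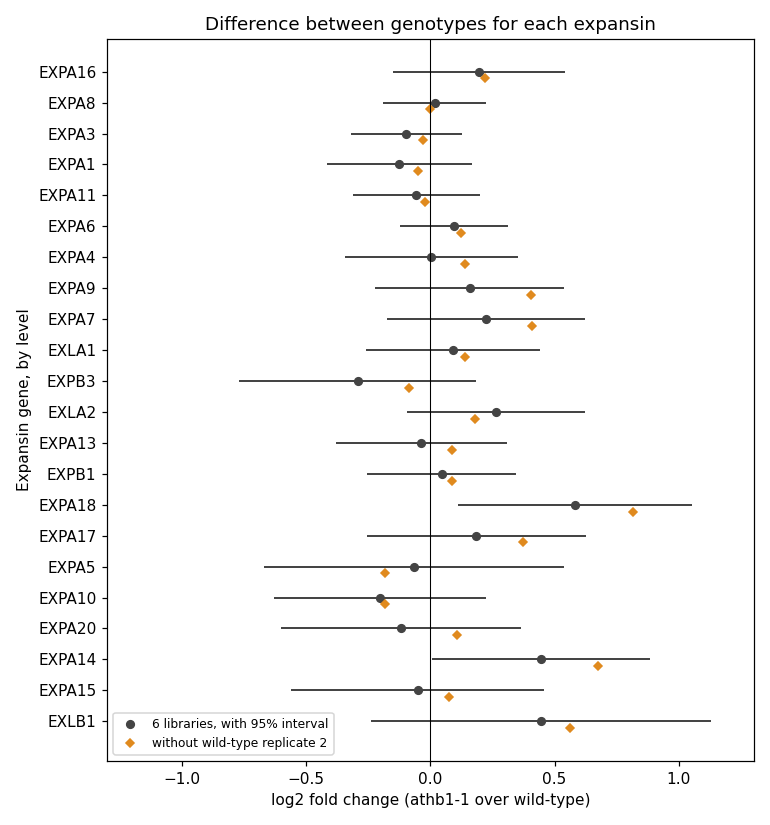
Log2 fold change of each tested expansin, athb1-1 over wild-type, with genes ordered by level from highest at the top. Dark points and lines give the fit to all 6 libraries with its 95% interval and orange diamonds the fit without wild-type replicate 2. Of the 22 intervals, 20 span 0, and the diamonds of EXPA18 and EXPA14 lie farthest right, at 0.81 and 0.67.

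The alpha-expansins held the most abundant transcripts. To compare genes with each other, CPM was divided by the length of the longest annotated transcript in kilobases. On this per-length scale EXPA16 averaged 118 ± 25.3 in athb1-1 and 103 ± 14.8 in wild-type, and EXPA8 averaged 110 ± 9.04 in athb1-1 and 109 ± 4.69 in wild-type (SD, n = 3 each). EXPA3, EXPA1, EXPA11 and EXPA6 came next, and these 6 genes were the top 6 in both genotypes. They made up 80.1% to 81.0% of the superfamily's per-length total in the athb1-1 libraries and 79.0% to 82.3% in the wild-type libraries. The lowest tested member, EXLB1, averaged 1.33 in athb1-1 and 0.982 in wild-type on the same scale. The most abundant member was 95.9 times as high as EXLB1 over all 6 libraries.

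The order of levels had few clear steps. Within each genotype the libraries of EXPA16 and EXPA8 overlapped on the per-length scale, as did those of EXPA3 and EXPA1, of EXPA11 and EXPA6, and of EXPA4 and EXPA9. Between these pairs, and below EXPA9, the libraries of neighbouring genes did not overlap in either genotype. From EXPA7 down to EXPB1 the neighbours overlapped in both genotypes, and the same held for the members below EXPB1 until EXLB1, which stood below the rest.

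**Figure D2:**
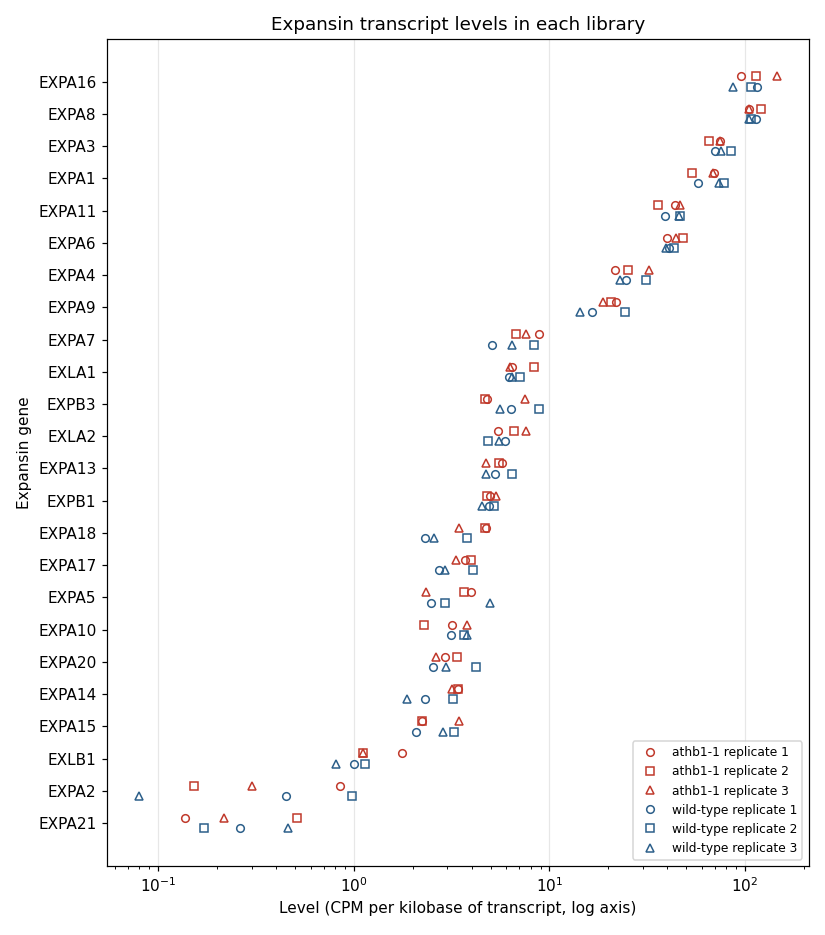
Transcript level of 24 expansins in each library, in CPM per kilobase of transcript on a log axis, with athb1-1 in red above wild-type in blue and the marker shape giving the replicate. EXPA16 and EXPA8 lie highest, and EXPA2 and EXPA21, which were too low to test, lie below 1.

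EXPA16 (AT3G55500; TAIR10.1 chromosome 3, 20574752 to 20576249, minus strand) had the highest mean level over the 6 libraries. It had 119, 143 and 182 CPM in athb1-1 and 144, 135 and 108 CPM in wild-type. The highest library was athb1-1 replicate 3 and the lowest was wild-type replicate 3, with the others intermixed. Its log2 fold change was 0.20 (SE 0.15), and it was 0.02 without athb1-1 replicate 3.

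EXPA8 (AT2G40610; chromosome 2, 16948791 to 16950705, minus strand) had the narrowest interval of all. Its libraries held 139, 160 and 140 CPM in athb1-1 and 151, 142 and 140 CPM in wild-type. The ranges overlapped, and the log2 fold change was 0.02 (SE 0.09; 95% interval −0.19 to 0.22).

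EXPA3 (AT2G37640; chromosome 2, 15787523 to 15790139, minus strand) had 125, 110 and 125 CPM in athb1-1 and 118, 141 and 125 CPM in wild-type. Its log2 fold change was −0.10 (SE 0.10), with wild-type replicate 2 the highest of the 6 libraries. EXPA1 (AT1G69530; chromosome 1, 26141726 to 26143538, plus strand) is known for its part in stomatal opening. It had 101, 78.6 and 99.9 CPM in athb1-1 and 83.7, 113 and 108 CPM in wild-type, with a log2 fold change of −0.12 (SE 0.13). The 6 guard cell markers summed to between 1021 and 1122 CPM in athb1-1 and between 1031 and 1164 CPM in wild-type, and none of them was called. That sum is mostly TGG1, at 939 to 1046 CPM in athb1-1 and 965 to 1092 CPM in wild-type. KAT1, a guard cell potassium channel, had 26.5, 25.3 and 26.0 CPM in athb1-1 and 20.2, 14.6 and 21.8 CPM in wild-type, groups that did not overlap (log2 fold change 0.46, SE 0.13, edgeR unadjusted p = 0.00525, adjusted p = 0.724). SLAC1, a guard cell anion channel, stood at 0.42 (SE 0.27), and the other 4 ranged over −0.11 to 0.13. Any part of guard cell number in the EXPA1 values was not tested.

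EXPA11 (AT1G20190; chromosome 1, 6998335 to 6999839, minus strand) had 57.8, 47.2 and 61.4 CPM in athb1-1 and 51.4, 61.0 and 60.6 CPM in wild-type (log2 fold change −0.06, SE 0.12). EXPA6 (AT2G28950; chromosome 2, 12431338 to 12433796, minus strand) had 63.4, 76.6 and 70.5 CPM in athb1-1 and 65.1, 69.2 and 62.8 CPM in wild-type (log2 fold change 0.09, SE 0.10). In EXPA6 the athb1-1 replicates 2 and 3 lay above every wild-type library and athb1-1 replicate 1 did not. EXPA4 (AT2G39700; chromosome 2, 16543832 to 16545746, minus strand) had 32.3, 37.9 and 48.4 CPM in athb1-1 and 37.0, 46.9 and 34.5 CPM in wild-type (log2 fold change 0.00, SE 0.16). Its sign turned under DESeq2's size factors. EXPA4 was also the member whose coding sequence was closest to EXPA16, at 81.1% identity with a longest shared run of 29 bases.

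The 2 root hair expansins were EXPA7 (AT1G12560; chromosome 1, 4276505 to 4277969, plus strand) and EXPA18 (AT1G62980; chromosome 1, 23331563 to 23333246, plus strand). Both genes have 3 exons and are known from growing root hairs, and their coding sequences shared 75.4% identity. Their promoters are shown because both carry the root hair element, a motif bound by the root hair bHLH factors and first described in promoters of this kind. The 250 bases before the annotated start on the gene's own strand were read from TAIR10.1 at chr1:4276255-4276504 for EXPA7 and at chr1:23331313-23331562 for EXPA18. Capitals mark the root hair element.
EXPA7: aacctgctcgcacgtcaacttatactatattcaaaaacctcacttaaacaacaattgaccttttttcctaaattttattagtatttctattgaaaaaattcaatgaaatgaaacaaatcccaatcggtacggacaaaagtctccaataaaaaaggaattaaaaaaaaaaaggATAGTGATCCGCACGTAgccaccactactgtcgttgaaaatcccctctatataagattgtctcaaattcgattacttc
EXPA18: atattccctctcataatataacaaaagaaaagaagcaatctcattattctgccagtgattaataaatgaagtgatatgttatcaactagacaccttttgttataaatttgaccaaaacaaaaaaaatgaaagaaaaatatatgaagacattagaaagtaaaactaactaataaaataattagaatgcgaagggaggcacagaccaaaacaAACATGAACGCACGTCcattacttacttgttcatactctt
The element lay at −78 to −62 in EXPA7 and at −40 to −25 in EXPA18, counting back from the start. It was found on either strand in 0.754% of 27443 promoters of protein-coding genes and in 2 of the 35 expansins annotated as protein-coding. Because the motif was defined on such genes, these matches are a description and no independent finding.

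EXPA18 had 5.95, 5.85 and 4.33 CPM in athb1-1 and 2.88, 4.73 and 3.19 CPM in wild-type. The athb1-1 replicates 1 and 2 lay above all wild-type libraries, and athb1-1 replicate 3 lay between wild-type replicate 2 and the other two. Its log2 fold change was 0.58 (SE 0.21; 95% interval 0.11 to 1.05), with an unadjusted p of 0.0188 and an adjusted p of 0.939 from edgeR. EXPA7 had 9.87, 7.57 and 8.43 CPM in athb1-1 and 5.67, 9.28 and 7.21 CPM in wild-type. Only athb1-1 replicate 1 exceeded every wild-type library, and the log2 fold change was 0.23 (SE 0.18), spread over 0.07 without wild-type replicate 1 to 0.41 without wild-type replicate 2. EXPA7 overlaps a gene on the opposite strand by 23 bases, and EXPA18 another by 46 bases. EXLA1 and EXPA2 also overlap genes on the opposite strand, by 22 and 61 bases. The strand setting of the counting is unknown, so reads in those overlaps cannot be assigned.

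EXPA14 (AT5G56320; chromosome 5, 22808641 to 22810747, plus strand) and EXPA17 (AT4G01630; chromosome 4, 700566 to 701769, plus strand) are known from lateral root formation, downstream of the factor LBD18. EXPA14 had 5.22, 5.23 and 4.87 CPM in athb1-1 and 3.53, 4.91 and 2.87 CPM in wild-type. The lowest athb1-1 library was just below wild-type replicate 2 and above both other wild-type libraries. The log2 fold change of EXPA14 was 0.45 (SE 0.20; 95% interval 0.01 to 0.88), with an unadjusted p of 0.0457 and an adjusted p of 0.939 from edgeR. EXPA17 had 4.06, 4.37 and 3.64 CPM in athb1-1 and 2.97, 4.46 and 3.19 CPM in wild-type, so wild-type replicate 2 was the highest library (log2 fold change 0.19, SE 0.20).

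Promoters were also searched for CAATNATTG, the general form of the site that homeodomain-leucine zipper proteins are known to bind. Class I proteins such as ATHB1 prefer A or T at its centre, and class II proteins prefer C or G there. The form with A or T was found in 0 of the 35 expansin promoters, against 0.652% of all 27443 promoters on either strand. The form with C or G was found in EXPA17, at −133 to −125, and in 0.266% of all promoters. The other motifs searched were CACGTG, the core that PIF factors bind, found in EXPB2 and in 6.49% of all promoters, and TGTCTC, bound by auxin response factors, found in EXPA5, EXPA6, EXPA7 and EXPA10 and in 10.9% of all promoters. No match in these 250 bases says only that the letters are not there.

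EXPA9 (AT5G02260; chromosome 5, 463073 to 465273, plus strand) had 29.8, 28.1 and 25.5 CPM in athb1-1 and 22.5, 33.0 and 19.4 CPM in wild-type. All athb1-1 libraries lay between wild-type replicate 2 above and wild-type replicates 1 and 3 below (log2 fold change 0.16, SE 0.17). That value was 0.0025 without wild-type replicate 3, 0.088 without wild-type replicate 1 and 0.41 without wild-type replicate 2. The remaining tested alpha-expansins were EXPA5, tied to brassinosteroid-dependent growth, EXPA10, known from leaf and petiole growth, EXPA13, EXPA15 and EXPA20. Their mean levels were between 2.64 and 5.33 CPM per kilobase in athb1-1 and between 2.72 and 5.48 CPM per kilobase in wild-type. All 5 had small negative log2 fold changes, between −0.20 for EXPA10 and −0.04 for EXPA13, and 4 of them turned positive when 1 library was left out, up to 0.30 for EXPA5, 0.089 for EXPA13, 0.077 for EXPA15 and 0.11 for EXPA20. EXPA20 shares 1061 bases with a noncoding RNA gene on the opposite strand, so its count may include reads of that gene.

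Of the beta-expansins EXPB1 and EXPB3 were measured. EXPB3 (AT4G28250) had 8.56, 8.43 and 13.4 CPM in athb1-1 and 11.4, 15.8 and 9.99 CPM in wild-type. Its log2 fold change of −0.29 (SE 0.21) was the lowest of all expansins, with athb1-1 replicates 1 and 2 below every wild-type library and athb1-1 replicate 3 among them. It was −0.54 without athb1-1 replicate 3 (unadjusted p = 0.0214, adjusted p = 0.989 from edgeR) and −0.087 without wild-type replicate 2, where EXPA10 and EXPA5 were lower, both at −0.18. EXPB1 (AT2G20750) differed little, with a log2 fold change of 0.05 (SE 0.14; 95% interval −0.25 to 0.34). The 6 EXPB loci summed to 17.8 ± 3.19 CPM in athb1-1 and 19.9 ± 3.58 CPM in wild-type (SD, n = 3 each).

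Among the expansin-like genes EXLA1 (AT3G45970; chromosome 3, 16896166 to 16897308, plus strand) had 6.39, 8.27 and 6.19 CPM in athb1-1 and 6.13, 7.01 and 6.39 CPM in wild-type (log2 fold change 0.09, SE 0.16). EXLA2 (AT4G38400), known from responses to Botrytis infection, had 6.17, 7.42 and 8.51 CPM in athb1-1 and 6.69, 5.46 and 6.22 CPM in wild-type. Wild-type replicate 2 was the lowest library of EXLA2, unlike most other members (log2 fold change 0.26, SE 0.16). EXLB1 (AT4G17030) had 1.96, 1.25 and 1.24 CPM in athb1-1 and 1.12, 1.27 and 0.901 CPM in wild-type. Only athb1-1 replicate 1 was above the wild-type range, and the log2 fold change was 0.45 (SE 0.31), or 0.19 without that library.

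The 14 expansins that were not tested were near the limit of detection in seedlings. No counts were found in any of the 6 libraries for 7 of them (EXPA19, EXPA22, EXPA23, EXPA26, EXPB2, EXPB4 and EXPB6), which allows up to 3 counts in all, or 0.0409 CPM. EXPA19 is annotated as a transcribed pseudogene and was left out of the promoter search. A further 5 had 1 or 2 counts over all libraries, namely EXPA12, EXPA24, EXPA25, EXPB5 and EXLA3. EXPA2, known from the endosperm of germinating seeds, had 12, 2 and 4 counts in athb1-1 and 5, 11 and 1 counts in wild-type. The ratio of its pooled counts, athb1-1 over wild-type and scaled only to the total gene counts of each genotype, was 0.941. The 95% interval of this ratio, 0.458 to 1.94, covers counting error only. EXPA21 had 2, 7 and 3 counts in athb1-1 and 3, 2 and 6 counts in wild-type, and 964 of its bases lie under a gene on the opposite strand.

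Several of the undetected genes lie beside close relatives. EXPA21 to EXPA26 stand side by side on chromosome 5, between 15726243 and 15740605, with no annotated gene between them. EXPA22 and EXPA26 were 97.7% identical in coding sequence with a shared run of 208 bases, and EXPA23 and EXPA25 were 97.5% identical with a shared run of 219 bases. Reads from such runs match both copies, and how the authors counted them is not given, so the values of these 4 genes are uncertain. EXPB2 and EXPB6 are neighbours on chromosome 1, 201 bases apart, and EXLA3 lies near EXLA1 on chromosome 3 with 86.6% identity.

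Wild-type replicate 2 was the highest wild-type library for 17 of the 22 tested expansins, or 77.3%, against 39.6% of all genes. Without it, edgeR called 165 genes, or 0.873%, and still 0 expansins. An unadjusted p under 0.05 was then reached by 4 of the 22 expansins, against 13.7% of all genes. The log2 fold change became 0.81 for EXPA18 (SE 0.22, adjusted p = 0.0699), 0.41 for EXPA9 (SE 0.11, adjusted p = 0.0731), 0.67 for EXPA14 (SE 0.21, adjusted p = 0.117) and 0.41 for EXPA7 (SE 0.17, adjusted p = 0.272). Removing the trend with transcript length as well gave 0.77 for EXPA18 (edgeR adjusted p = 0.102), 0.38 for EXPA9 (0.101), 0.66 for EXPA14 (0.157) and 0.36 for EXPA7 (0.409). The 22 tested expansins have transcripts of 989 to 1795 bases, with a median of 1394 beside 1759 for all genes tested. Any part of seed reserve RNA or transcript length in these values was not tested.

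The 5 remaining libraries put all athb1-1 values above wild-type replicates 1 and 3 in 6 of the 22 expansins, or 27.3%, and below them in 0. Over all genes 30.7% had groups that did not overlap in this comparison, with 16% higher and 14.6% lower. These 6 were EXPA7, EXPA9, EXPA14, EXPA17, EXPA18 and EXLB1, which were singled out after their values were seen. Leaving out another library instead gave these counts of expansins with groups that did not overlap in either direction, beside the share of all genes. The count was 2 for athb1-1 replicate 1 (18.1%), 1 for athb1-1 replicate 2 (19.4%) and 3 for athb1-1 replicate 3 (20.3%). It was 2 for wild-type replicate 1 (19%) and 0 for wild-type replicate 3 (22.9%). Of these expansins EXPA6, EXLA2, EXPA14 and EXPA18 were higher in athb1-1, and EXPA8, EXPB3, EXPA1 and EXPA3 were lower.

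**Figure D3:**
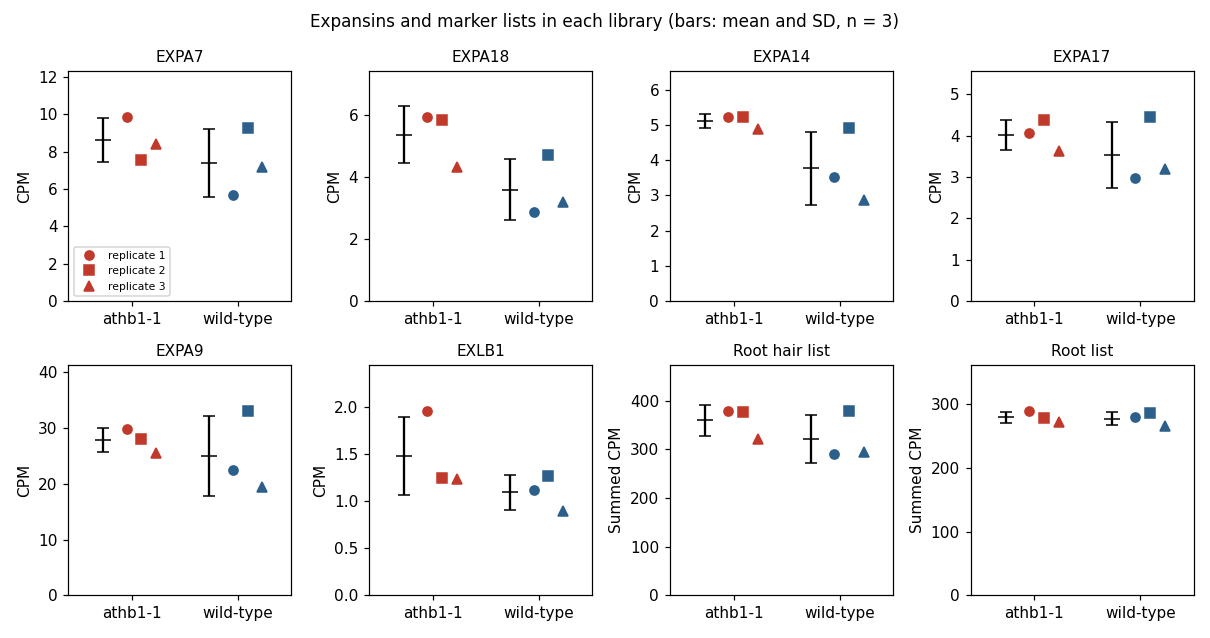
CPM of 6 expansins and summed CPM of 2 marker lists in each library, with athb1-1 left of wild-type, marker shapes for replicates and bars for mean and SD (n = 3). In the panels of EXPA9 and EXPA17 wild-type replicate 2 (square) is the highest of all libraries, and the root hair list of wild-type replicate 2 reaches 378 CPM, beside 290 and 295 CPM in the other wild-type libraries.

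Other genes of root hair growth were read from a list of 18, which holds neither EXPA7 nor EXPA18. Of its 17 tested genes 0 were called by edgeR, 3 had an unadjusted p under 0.05, 15 had a positive log2 fold change and the median was 0.33, beside 0.01 over all genes. The list summed to 379, 377 and 322 CPM in athb1-1 and to 290, 378 and 295 CPM in wild-type, so wild-type replicate 2 lay within the athb1-1 range and the other wild-type libraries below it. The smallest p values belonged to COW1, a phosphatidylinositol transfer protein of root hair tips, at 0.73 (SE 0.19, edgeR adjusted p = 0.548), and XTH26, a wall enzyme, at 1.12 (SE 0.36, edgeR adjusted p = 0.854). The 10 general root markers summed to between 272 and 289 CPM in athb1-1 and between 266 and 286 CPM in wild-type. The largest part of that sum is PHO1, at 111 to 132 CPM in athb1-1 and 117 to 127 CPM in wild-type. Of the 8 root markers tested 0 were called by edgeR, 5 were positive and the median was 0.01. SMB, at 0.328 to 1.86 CPM, stood at 0.93 (SE 0.40, edgeR unadjusted p = 0.0370, adjusted p = 0.939). WER stood at 0.33 (SE 0.39), and the rest ranged over −0.06 to 0.10. What root or root hair cell numbers contribute to these values was not tested.

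Expansins act in walls acidified by plasma membrane proton pumps, and 24 genes of that pathway were read beside them. Of the 21 tested, 0 were called by edgeR, 2 had an unadjusted p under 0.05, 10 had a positive log2 fold change and the median was −0.00. SAUR20, of the auxin-induced family that activates the pumps, stood at 0.64 (SE 0.24) and the pump gene AHA7 at 0.55 (SE 0.24), both with an edgeR adjusted p of 0.939. SAUR20 belongs to a group of close copies whose reads may have been shared. Of 22 genes acting on xyloglucan and cellulose, the polymers that expansins loosen, 20 were tested and 0 called by edgeR, with 2 at an unadjusted p under 0.05, 8 positive and a median of −0.06. XTH15, a xyloglucan endotransglucosylase/hydrolase, had 708, 657 and 613 CPM in athb1-1 and 410, 469 and 465 CPM in wild-type, groups that did not overlap, at a log2 fold change of 0.56 (SE 0.10, edgeR adjusted p = 0.123). XXT1, a xyloglucan xylosyltransferase, stood at −0.23 (SE 0.10, edgeR adjusted p = 0.939).

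**Figure D4:**
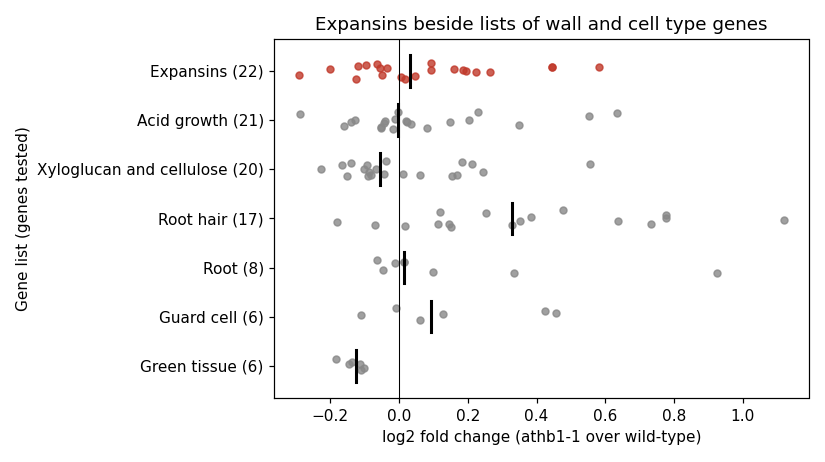
Log2 fold change, athb1-1 over wild-type, of each tested gene in the expansins (red) and in 6 other lists (grey), with black bars for medians and the number of genes tested in brackets. The expansin median is 0.03 and the root hair median 0.33, and no gene shown was called.

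Exon usage was tested for 20 expansins with edgeR, and 0 were called, against 0.00781% of all 12808 genes, which is 1 gene. The smallest p per gene among them was 0.298 before adjustment and 1.00 after it, for EXPA11. In the authors' deposited table, whose fold changes are wild-type over athb1-1 and were turned in sign here, 24 of the 36 expansins are listed. In the authors' deposited table the smallest adjusted p among these is 0.766, for EXPA18, with a log2 fold change of 0.58, and the other 23 have an adjusted p of 1. Of all 22676 genes listed there, 48 have an adjusted p under 0.05.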

How the data were processed

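The authors deposited raw read counts per gene and per exon bin for 3 athb1-1 and 3 wild-type libraries. The submitters' processing notes name TAIR10 as build and TopHat2 2.0.8 and Bowtie2 2.1.0 as tools. Which program counted reads, whether by strand, and with which annotation, was not given in the sources used here. The authors' deposited comparison table holds log2 fold changes and log2 CPM with p-values; its 6 per-library columns were not used. Names, lengths, positions and sequences are RefSeq's for TAIR10.1, which holds 32835 of the 33602 identifiers.

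Gene counts were tested with edgeR 4.0.16 in R 4.3.3 (TMM, filterByExpr, robust quasi-likelihood F-test, genotype only, Benjamini-Hochberg over 18626 genes, threshold 0.05). An SE is the absolute log2 fold change over the square root of F. CPM is TMM-scaled and errors are SD over 3 libraries. ATHB1 was tested on exon bins summed per locus, since its gene count was 0; that switch followed from the counts. Exon usage was tested with diffSpliceDGE. Alternatives were DESeq2 1.42.0, limma 3.58.1 voom, other size factors, no filter, a replicate block, a length correction, exon bins and each library left out. DESeq2 gave no adjusted p for 6 of the 29 members it fitted. The fits were tested on simulated data with the same spread for every gene and no deviating library. That test does not cover a library like wild-type replicate 2. P-values set the difference between genotypes against the spread between these libraries.

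Values in every library are given for members with an unadjusted p under 0.05 or among the 10 highest levels per kilobase, and the 2 smallest p of each pathway list are named. TGG1, KAT1, SLAC1, PHO1, SMB, WER, EXPA17, EXPB3, EXLA2 and EXLB1 were given after their values were seen. The members and lists were chosen with earlier results of these data known. Coding identity was computed with Biopython 1.88.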

Additional observations from a re-analysis of the deposited data

How the results depend on the processing

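No expansin was called under any of the 15 alternatives. Over all genes the 10 calls became 19 without the filter, 22 with DESeq2, 16 after a length correction and 108 with that and without wild-type replicate 2 together. Leaving out 1 library at a time gave 8 to 165 genes, the 165 without wild-type replicate 2, and, in a check added after seeing the data, 0 to 6 expansins with groups that did not overlap, the 6 without wild-type replicate 2. Levels per kilobase of mean instead of longest transcript were 89.0 for EXPA3 and 49.2 for EXPA11. Of 330 log2 fold changes of members over all alternatives 27 changed sign. EXPA4 turned to −0.0013 with DESeq2's size factors, −0.0019 with DESeq2, −0.0033 with voom, −0.0014 with the replicate block and −0.024 from exon bins, and EXPA13 to 0.0017 from exon bins. After a length correction that also omitted wild-type replicate 2, EXPA8 turned to −0.034, EXPA13 to 0.067, EXPA15 to 0.055 and EXPA20 to 0.058. Leaving out 1 library spread EXPA4 over −0.17 to 0.14, EXPA5 over −0.25 to 0.30, EXPA8 over −0.056 to 0.054, EXPA11 over −0.14 to 0.043, EXPA13 over −0.14 to 0.089, EXPA15 over −0.29 to 0.077, EXPA20 over −0.26 to 0.11, EXPB1 over −0.011 to 0.085 and EXLA1 over −0.053 to 0.17. EXPA18 stayed within 0.45 to 0.81 and EXPA14 within 0.27 to 0.67. The cause of these changes was not tested. Whether the replicate numbers pair the libraries was not settled. Deviations of same-numbered libraries correlated at −0.21, 0.33 and 0.23 over 11586 genes, and those of differently numbered libraries at −0.37 to 0.28. With the replicate block 0 expansins and 12 genes were called, and EXPA18 stood at 0.58. With 3 libraries per genotype and few counts, differences in the low members as large as the bounds of their intervals were not excluded.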
